A study of Mus musculus with 6 samples.

Results

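Genes of the cell cycle were examined in mouse hearts with and without caveolin-1. The set holds 32 genes chosen by name, and 31 of them had at least 1 probe set that the array's annotation assigns to that symbol alone, of 18193 genes named in this way. The remaining gene, Ccnb1 for cyclin B1, had no such probe set, and only its promoter was read. By role, 9 of the 32 genes act in G1, 10 in S phase and 10 in G2 and mitosis, and 3 encode inhibitors. RNA of 6 heart samples from male mice, aged 5 to 6 months and fasted for 6 hours, was hybridised to Affymetrix mouse expression arrays. Of these, 3 samples were wild type (WT) and 3 were Cav1 knockout (Cav1KO). The labels give neither the strain nor the deleted part of Cav1. They do not say whether each sample is a separate animal, so the p-values here cover only the spread among the samples as deposited. Each sample is called a heart below. The knockout labels give no replicate number, so knockout replicates are numbered here in sample order.

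The cell cycle runs from G1 through DNA synthesis in S phase to G2 and mitosis. D-type cyclins with Cdk4 or Cdk6, and then cyclin E, phosphorylate the retinoblastoma protein, which releases E2F factors and so switches on genes of DNA replication. Cyclins A and B with Cdk1 then drive mitosis, and the Cip/Kip proteins p21, p27 and p57 bind and restrain cyclin-kinase complexes. Most cardiomyocytes of an adult mouse have left the cycle, and the dividing cells of an adult heart are largely other cells, such as endothelial cells, fibroblasts and macrophages. Caveolin-1 has been described as a repressor of the cyclin D1 gene, Ccnd1, which makes that gene the first question here.

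Cav1 itself had normalised intensities of 3853, 3836 and 4216 in wild type, against 118, 101 and 101 in knockout, as the labels say. It fell by 5.02 on the log2 scale (SE 0.067, limma, Benjamini-Hochberg adjusted p = 1.65e-09). All 12 cardiomyocyte markers were measured and none was at 0. Their summed normalised intensity ran from 194949 to 198008 in wild-type and from 195139 to 197465 in knockout hearts. Quantile normalisation gives all arrays the same set of values, which by itself holds sums of such bright markers close together. Before normalisation, the summed intensity of all probe sets other than controls ran from 11601097 to 12253754 per array. Wild-type replicate 1 had a trimmed mean of 155 as deposited, below the 163 to 168 of the other 5 arrays.

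Of the 31 genes, 21 were bright enough to be tested and 10 were not. A gene was judged at its brightest probe set, and a probe set was tested if its mean over the 6 hearts lay in the upper 50% of all probe sets, which began at an intensity near 44.6. None of the 21 tested genes passed at an adjusted p of 0.05 (limma over all 22519 probe sets tested). Across all 11486 genes tested, 462 passed at their brightest probe set, which is 4.02%, a rate at which 21 genes would hold fewer than 1 call. At an unadjusted p under 0.05, 7 of the 21 were higher and 1 lower in knockout, beside 22.0% of all genes in either direction. Groups did not overlap for 6 of the 21, each with the knockout hearts higher, beside 13.4% of all genes in that direction. The log2 difference was above 0 for 15 of the 21, beside 45.8% of all genes, with a median of 0.067 beside -0.014 for all genes. The direction of small differences moved with the scaling: with the intensities as deposited, 17 of 21 were above 0, beside 60.5% of all genes. Array-wide, 531 probe sets were higher and 183 lower, 74.4% of calls being higher, or 577 and 58, 90.9%, as deposited. The total of 714, which is 3.17% of the probe sets tested, depended on single hearts. It was 191 when knockout replicate 1 was left out and 226 when knockout replicate 2 was, and 300 or 465 when wild-type replicate 3 or 1 was.

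**Figure D1:**
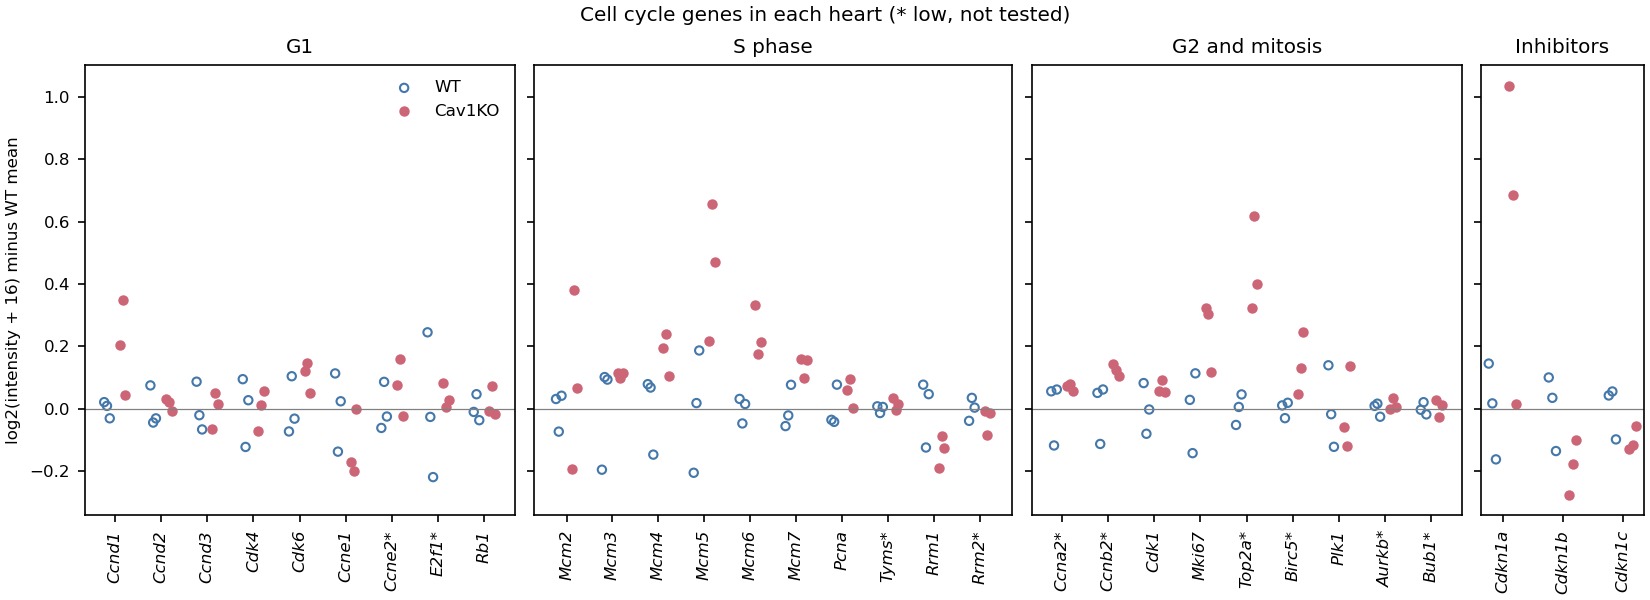
Each point is 1 heart, plotted as log2(intensity + 16) minus the wild-type mean of that gene at its brightest probe set; open blue points are wild type, filled red points Cav1 knockout, and an asterisk marks the 10 genes too low to be tested. The knockout points of Mcm4, Mcm5, Mcm6, Mcm7, Mki67, Ccnd1 and the low genes Ccnb2, Top2a and Birc5 lie above all wild-type points, and Cdkn1a has 2 high knockout hearts and 1 among the wild-type ones.

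Among the G1 genes the largest difference was that of Ccnd1, and it passed the threshold at 1 of its 3 probe sets. At the brightest (1417420_at) the wild-type intensities were 669, 664 and 645, those of the knockout hearts 762, 843 and 680. Every knockout heart was above every wild-type heart, with knockout replicate 3 close to the wild-type range. The log2 difference was 0.20 (SE 0.073, 95% confidence interval 0.035 to 0.36, limma adjusted p = 0.181), which did not pass. A second probe set (1448698_at) read 536, 488 and 524 in wild type against 618, 613 and 544 in knockout, a difference of 0.19 (SE 0.064, limma adjusted p = 0.154). At the third (1417419_at) the wild-type hearts read 259, 254 and 264, against 324, 347 and 297 in knockout. There Ccnd1 rose by 0.30 (SE 0.065, limma adjusted p = 0.0469), narrowly past the threshold. The groups did not overlap at any of the 3 probe sets, and knockout replicate 3 was the lowest knockout heart at each. The call at the third probe set was lost without any one of wild-type replicates 1, 2 and 3 (limma adjusted p = 0.100, 0.0800 and 0.119) or without knockout replicate 1 or 2 (0.171 and 0.163). It was also lost with no filter on low values (0.0709) and with robust fitting without a trend (0.0720). The third probe set passed under 7 of 14 alternatives in all, its limma adjusted p running from 0.0288 to 0.171. Of all 41 tested probe sets of the 21 genes this was the 1 that passed as higher, beside 2.36% of all probe sets, and 0 passed as lower.

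The other D-type cyclins, which drive the same kinases, had differences near 0 at their brightest probe sets. There Ccnd2 read 1145, 1053 and 1063 in wild type against 1110, 1102 and 1082 in knockout, with a log2 difference of 0.015 (95% confidence interval -0.090 to 0.12). Ccnd3 stood at 495, 459 and 444 against 445, 483 and 471, with a log2 difference of 0.0013 (95% confidence interval -0.13 to 0.14). For both cyclins the groups overlapped at these probe sets. Ccnd2 had 7 tested probe sets, all with a difference above 0 and none past the threshold (limma). At 1 of them, with 797, 810 and 823 against 832, 901 and 854, the groups did not overlap (log2 difference 0.088, limma adjusted p = 0.326). The largest difference of Ccnd2, 0.27, came from a dim probe set at 54.8, 66.6 and 45.5 against 68.9, 83.5 and 58.5, with overlapping groups (limma adjusted p = 0.283). Ccnd3 had a second tested probe set at -0.040, and another, too low to be tested, at 30.2, 41.8 and 37.7 against 59.2, 55.1 and 37.1 (0.33, overlapping). No test compared the D-type cyclins with one another. Cdk4, a partner kinase, had wild-type intensities of 383, 327 and 364 and knockout intensities of 339, 360 and 372 (log2 difference -0.0018, turning to 0.067 as deposited). Its dimmer probe sets, also tested, stood at -0.057 and 0.098, with overlapping groups. Cdk6, the other partner, had 168, 192 and 173 against 194, 198 and 184 (log2 difference 0.11, limma adjusted p = 0.404), and only knockout replicate 3 lay within the wild-type range. At its second probe set, with 90.0, 117 and 112 against 127, 122 and 123, the groups did not overlap and the log2 difference was 0.21 (limma adjusted p = 0.243). The cyclin E gene Ccne1 had a log2 difference of -0.12 (limma adjusted p = 0.456), with 56.9, 45.2 and 52.5 in wild type against 43.9, 42.6 and 51.3. Rb1, for the retinoblastoma protein, stood at 281, 292 and 275 against 281, 298 and 279, a log2 difference of 0.017. At the brightest probe set the groups of these 4 genes overlapped. Ccne2 and E2f1 were too low to be tested, with intensities of 15.2 to 20.3 and 29.4 to 46.7. Of the 7 tested G1 genes 0 passed in limma, and the median log2 difference was 0.015. An unadjusted p under 0.05 was reached by 1 of them, beside 22.0% of all genes.

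**Figure D2:**
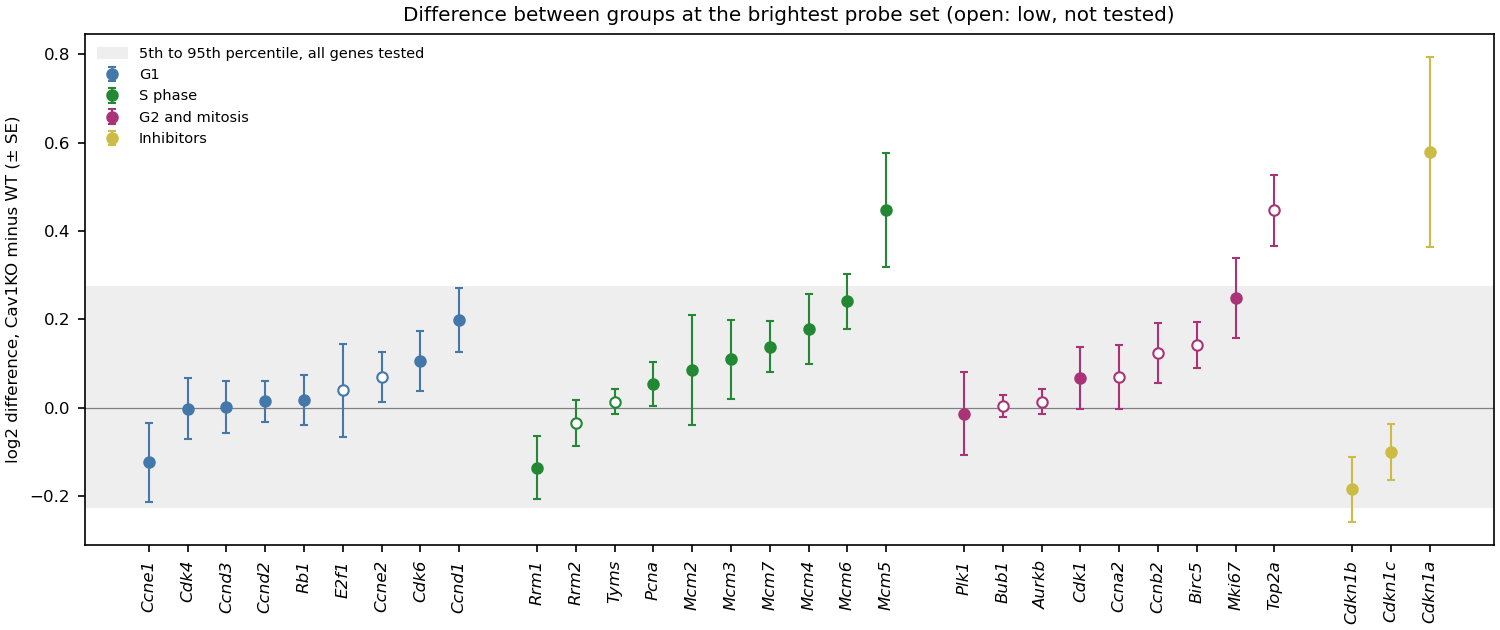
Points are log2 differences, knockout minus wild type, at each gene's brightest probe set, with bars of ± 1 SE from limma, grouped by role; open points are genes too low to be tested, and the shaded band spans the 5th to 95th percentile of all 11486 genes tested (-0.22 to 0.27). Of the tested genes, Mcm5 and Cdkn1a lie outside the band.

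All 6 S phase genes of the MCM helicase, the ring that opens DNA ahead of the replication fork, had higher mean intensities in knockout. None passed. Mcm5 read 40.4, 49.8 and 58.0 in wild type, against 59.5, 86.5 and 74.1 in knockout. Its groups did not overlap, but knockout replicate 1 was close to wild-type replicate 3. The log2 difference was 0.45 (SE 0.13, 95% confidence interval 0.16 to 0.74, limma adjusted p = 0.107). Mcm6 stood at 225, 213 and 223 against 281, 251 and 258, with a clear gap between the groups. Its log2 difference was 0.24 (SE 0.063, 95% confidence interval 0.099 to 0.38, limma adjusted p = 0.0807). Mcm6 passed under 3 of 14 alternatives, as deposited (limma adjusted p = 0.0437), centred on the median (0.0478) and with the upper 25% of probe sets (0.04996), and over all 14 its adjusted p reached 0.268. Mcm4 had 158, 157 and 133 against 172, 178 and 161 (log2 difference 0.18, limma adjusted p = 0.247), and Mcm7 264, 271 and 291 against 309, 295 and 308 (log2 difference 0.14, limma adjusted p = 0.231). In both genes the lowest knockout heart lay just above the highest wild-type heart at this brightest probe set. At a dimmer tested probe set of Mcm4 the groups overlapped (log2 difference 0.074). Those of Mcm7 overlapped at 0.082 and 0.077, and did not overlap at another, with 0.20 (limma adjusted p = 0.202). The groups overlapped for Mcm2, at 232, 214 and 233 against 196, 299 and 238 (log2 difference 0.085), which turned to -0.063 without knockout replicate 2. They also overlapped for Mcm3, at 69.5, 89.0 and 88.5 against 90.0, 88.9 and 90.0 (log2 difference 0.11). There wild-type replicate 1 alone was low, and without it the difference was 0.012. A further tested probe set of Mcm2 stood at 76.8, 78.1 and 72.3 against 75.2, 104 and 98.7 (0.24, limma adjusted p = 0.247). For Mcm3 a further one stood at 45.8, 47.3 and 46.2 against 47.2, 63.1 and 56.9 (0.19, limma adjusted p = 0.264), with the wild-type hearts close together. In both, knockout replicate 1 lay within the wild-type range.

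Over the 6 MCM genes the median log2 difference was 0.16, beside -0.014 for all genes. All 6 were above 0 with quantile normalisation, as deposited and centred on the median. Beside them 45.8%, 60.5% and 66.0% of all genes were, in the same order of scalings. The median deviation of these genes from their 6-heart mean was -0.11, -0.10 and -0.019 in the wild-type hearts and 0.075, 0.10 and 0.074 in the knockout hearts. Of the 19 probe sets for MCM genes 18 had a difference above 0, including all 12 that were tested, though several belong to the same gene. Over all probe sets tested the median log2 difference was -0.0096. The brightest probe sets of Mcm3 and Mcm5 carry the array's suffix for probes shared with other sequences, as do those of Cdk4, Ccne1 and Aurkb. Those of Mcm2 and Mcm7 carry the suffix for probes common to several transcripts. The next probe set of Mcm5, too low to be tested, stood at 32.6, 32.7 and 32.7 against 39.3, 35.7 and 37.8. That of Mcm6, also low, stood at 20.9, 38.1 and 24.7 against 38.2, 47.9 and 35.9.

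Of the other 2 tested S phase genes 1 was above 0 and 1 below. Pcna, the sliding clamp of DNA polymerase, read 1103, 1098 and 1194 in wild type against 1180, 1209 and 1134 in knockout, with overlapping groups and a log2 difference of 0.054 (95% confidence interval -0.057 to 0.16). Rrm1, the large subunit of ribonucleotide reductase, stood at 234, 202 and 229 against 192, 207 and 202, a log2 difference of -0.14 (limma adjusted p = 0.317). Its partner Rrm2, the subunit whose level follows S phase, was low, at 22.3 to 25.6 in all hearts, and so was Tyms, thymidylate synthase, at 12.0 to 12.9. Of the 8 tested S phase genes 0 passed in limma, and 4, all MCM genes, reached an unadjusted p under 0.05 with knockout higher. In that direction 1273 of all 11486 genes tested did. The median log2 difference of the 8 was 0.12.

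**Figure D3:**
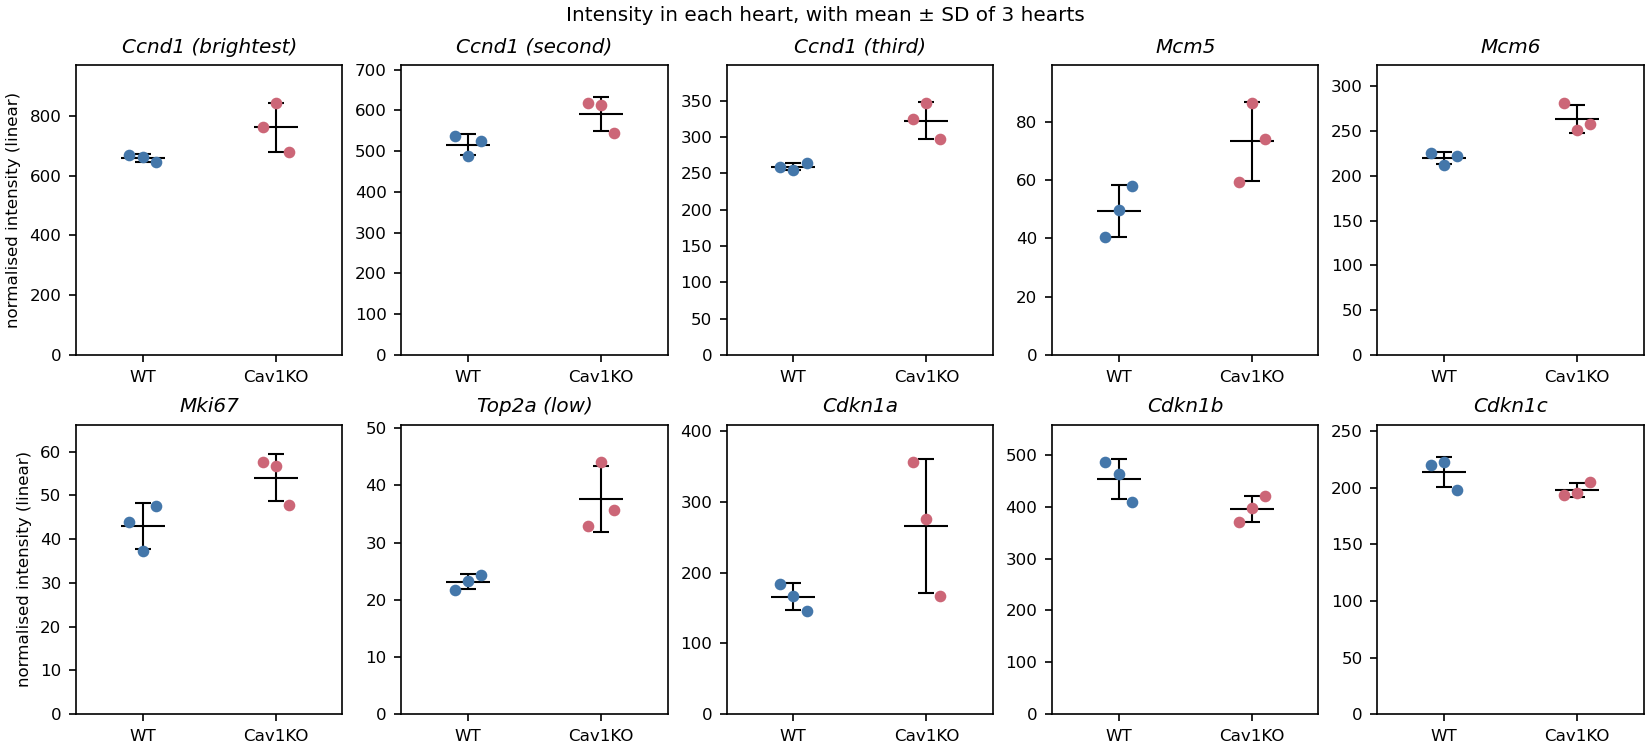
Normalised intensity on a linear axis from 0, with 1 point per heart in accession order within a group and the mean ± SD of 3 hearts, for the 3 probe sets of Ccnd1 and the brightest probe set of Mcm5, Mcm6, Mki67, Top2a and the 3 inhibitor genes. Groups do not overlap for Ccnd1, Mcm5, Mcm6, Mki67 and Top2a, though for Mki67 knockout replicate 3 is level with wild-type replicate 3. The last red point, knockout replicate 3, lies near the wild-type hearts for Ccnd1, Mki67 and Cdkn1a.

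Most genes of G2 and mitosis were dim. Of the 9 with a probe set 6 were too low to be tested. Among the 3 tested 0 passed in limma, with 1 at an unadjusted p under 0.05, beside 22.0% of all genes. Mki67, whose protein Ki-67 marks cycling cells, read 44.0, 37.3 and 47.7 in wild type, against 57.6, 56.7 and 47.9 in knockout. Knockout replicates 1 and 2 were above all wild-type hearts, and replicate 3 was level with wild-type replicate 3. The log2 difference was 0.25 (SE 0.091, 95% confidence interval 0.043 to 0.45, limma adjusted p = 0.181). Cdk1, the kinase that drives mitosis, stood at 51.7, 44.5 and 47.8 against 50.5, 52.1 and 50.3 (log2 difference 0.067, limma adjusted p = 0.608). Plk1, a kinase of spindle assembly, stood at 86.5, 75.9 and 69.5 against 73.3, 69.7 and 86.4, a log2 difference of -0.013 that turned to 0.0092 as deposited and 0.028 when centred on the median.

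Top2a, the topoisomerase that untangles chromosomes before they part, had the largest difference among the low genes. It read 21.8, 23.3 and 24.4 in wild type, against 33.0, 44.0 and 35.6 in knockout. Every knockout heart was well above every wild-type heart, although all 6 values lay below the level at which probe sets were tested. The log2(intensity + 16) difference was 0.45 (SE 0.080), and with no filter on low values it passed (limma adjusted p = 0.0313, where 1.16% of 45037 probe sets passed). Its other 2 probe sets were as low and showed no such gap: the second stood at 23.3, 22.1 and 23.8 against 24.7, 23.5 and 25.7, and the third had a log2 difference of -0.027. Birc5, for survivin, stood at 14.8, 13.9 and 15.0 against 15.6, 17.4 and 20.3, and Ccnb2, for cyclin B2, at 32.6, 27.4 and 33.0 against 35.8, 35.1 and 34.4. Both had groups that did not overlap, but neither passed with no filter (limma adjusted p = 0.263 and 0.430). Ccna2, for cyclin A2, stood at 42.6, 35.9 and 42.8 against 43.2, 43.5 and 42.6, and its groups overlapped. Aurkb and Bub1, for kinases of the chromosome passenger complex and the spindle checkpoint, lay between 8.70 and 12.3 in all hearts, with overlapping groups and log2 differences of 0.014 and 0.0045. Of the 10 low genes of all roles 9 had a difference above 0, beside 41.1% of the 6707 genes too low to be tested, though as deposited Tyms, Aurkb and Bub1 turned below 0. For 3 the groups did not overlap, with the knockout hearts higher, beside 7.13% of those genes.

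The inhibitors did not share a direction. Cdkn1a, for p21, read 185, 168 and 146 in wild type, against 356, 276 and 168 in knockout. Knockout replicates 1 and 2 were above all wild-type hearts, while replicate 3 lay inside the wild-type range. The log2 difference was 0.58 (SE 0.21, 95% confidence interval 0.093 to 1.06, limma adjusted p = 0.186), the largest of the 21 tested genes and the least precise. Without knockout replicate 3 it was 0.86 and passed (limma adjusted p = 0.0138), and over 14 alternatives the adjusted p ran from 0.0138 to 0.449. A dimmer probe set of Cdkn1a stood at 58.0, 54.9 and 54.4 against 71.4, 67.1 and 45.8, with knockout replicate 3 the lowest of all 6 hearts. Cdkn1b, for p27, stood at 486, 464 and 410 against 371, 398 and 420, a log2 difference of -0.18 (SE 0.074, limma adjusted p = 0.213), with knockout replicate 3 above wild-type replicate 3. Cdkn1c, for p57, stood at 221, 223 and 199 against 194, 196 and 205, a log2 difference of -0.10 (SE 0.064, limma adjusted p = 0.406), with overlapping groups. Of the 3 genes 0 passed in limma, and at an unadjusted p under 0.05 Cdkn1a was higher and Cdkn1b lower.

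Promoters were read because the S phase and mitotic genes are known to be switched on by different elements. The RefSeq promoter table of assembly GRCm38.p6, 250 bases before to 50 bases after a gene's start, held 24 of the 32 genes, Ccnd1 not among them. The E2F element was searched as TTTGGCGC, TTTCCCGC, TTTGCCGC or TTTCGCGC, the cell cycle homology region (CHR) as TTTGAA, and the CCAAT box as CCAAT, each on both strands; E2F words on opposite strands can overlap each other. An E2F word was found in 4 of 9 S phase genes, 1 of 8 genes of G2 and mitosis and 0 of 5 G1 genes, beside 2.6% of 27025 genes. TTTGAA was found in 1 of 9 S phase genes, 5 of 8 genes of G2 and mitosis and 0 of 5 G1 genes, beside 20.2% of all genes. CCAAT was found in 8 of 9, 7 of 8 and 1 of 5, beside 41.1%. Neither of the 2 inhibitor genes in the table, Cdkn1a and Cdkn1b, held an E2F word or TTTGAA. Among the further genes listed below, an E2F word was found in 9 of 19 G1 and E2F genes, 12 of 35 S phase genes and 2 of 39 genes of G2 and mitosis. TTTGAA was found there in 10 of 19, 7 of 35 and 28 of 39. All of these are matches of letters, not measured binding.

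Shown here are the 250 bases before the start of the S phase genes Mcm5 and Mcm6 and the mitotic genes Top2a and Mki67, chosen after their values were seen as the largest differences of their roles, 5′ to 3′ on the gene's strand, with every match of a searched motif in capitals. The positions are chr8:75109259-75109508 (plus strand) for Mcm5, chr1:128359706-128359955 (minus) for Mcm6, chr11:99024190-99024439 (minus) for Top2a and chr7:135716380-135716629 (minus) for Mki67.
Mcm5: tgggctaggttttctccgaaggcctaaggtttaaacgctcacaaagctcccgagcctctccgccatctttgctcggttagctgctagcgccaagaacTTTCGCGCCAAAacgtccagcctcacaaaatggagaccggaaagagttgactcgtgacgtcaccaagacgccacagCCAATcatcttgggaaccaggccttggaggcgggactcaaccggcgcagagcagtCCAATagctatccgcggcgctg
Mcm6: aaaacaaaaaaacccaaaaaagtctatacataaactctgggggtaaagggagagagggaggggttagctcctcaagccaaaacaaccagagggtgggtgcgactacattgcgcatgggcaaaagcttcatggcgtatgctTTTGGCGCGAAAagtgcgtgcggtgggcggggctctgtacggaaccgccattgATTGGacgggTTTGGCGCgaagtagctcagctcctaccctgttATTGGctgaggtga
Top2a: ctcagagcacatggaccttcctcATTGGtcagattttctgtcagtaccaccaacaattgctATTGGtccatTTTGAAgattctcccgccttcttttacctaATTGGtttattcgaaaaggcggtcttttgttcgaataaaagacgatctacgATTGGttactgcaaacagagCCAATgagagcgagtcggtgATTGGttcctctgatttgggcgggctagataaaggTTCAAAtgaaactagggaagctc
Mki67: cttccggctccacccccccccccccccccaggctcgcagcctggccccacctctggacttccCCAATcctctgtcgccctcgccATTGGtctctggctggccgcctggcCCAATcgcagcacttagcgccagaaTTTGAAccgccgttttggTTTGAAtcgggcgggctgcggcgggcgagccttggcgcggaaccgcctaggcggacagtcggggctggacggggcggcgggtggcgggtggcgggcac
The stretch of Mcm5 holds 2 overlapping E2F words and 2 CCAAT boxes, and that of Mcm6 holds 3 E2F words, of which 2 overlap, and 2 CCAAT boxes. The stretch of Top2a holds 6 CCAAT boxes and that of Mki67 holds 3, with 2 TTTGAA matches in each and no E2F word.

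Further genes of the cycle, listed by role, showed no direction that all roles shared. Of 134 such genes 87 were tested and 0 passed at the brightest probe set in limma. At an unadjusted p under 0.05, 7 were higher and 10 lower, beside 22.0% of all genes in either direction. The median log2 difference was -0.025. Of 20 tested G1 and E2F genes 0 passed (3 higher and 2 lower unadjusted, median -0.029). The 2 with the smallest p were Rbl1, for the retinoblastoma relative p107, at 40.7, 45.3 and 45.9 against 51.5, 58.6 and 56.3 (log2 difference 0.25, limma adjusted p = 0.107), and Tfdp2, an E2F partner, at 1046, 1082 and 985 against 898, 983 and 858 (log2 difference -0.18, limma adjusted p = 0.145). Neither gene had overlapping groups, though other probe sets of both differed in sign. Of 29 tested S phase genes 0 passed (0 higher and 3 lower unadjusted, median 0.0052), with 15 differences above 0 and 14 below. Gmnn, for geminin, the inhibitor of replication licensing, stood at 857, 1083 and 1034 against 802, 793 and 706 (log2 difference -0.36, limma adjusted p = 0.0661), and Rpa3, of the complex that coats single-stranded DNA, at 273, 276 and 289 against 255, 253 and 252 (log2 difference -0.13, limma adjusted p = 0.215). Both were lower in every knockout heart than in any wild-type heart. That held for 4 of the 29 genes, beside 15.2% of all genes, and these 2 had the smallest p of their list. Gmnn passed without wild-type replicate 1, at -0.46 (limma adjusted p = 0.0178).

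Among 23 tested further genes of G2 and mitosis 0 passed in limma (2 higher and 5 lower unadjusted, median -0.038). Cenpf, for a kinetochore protein, read 273, 325 and 194 in wild type against 95.8, 99.6 and 184 in knockout, with knockout replicate 3 just below the lowest wild-type heart. The log2 difference was -1.001 (SE 0.23, limma adjusted p = 0.0577), and it passed without knockout replicate 3, at -1.27 (limma adjusted p = 0.0111). Other probe sets of Cenpf, too low to be tested, stood at -0.21 and -0.080, with overlapping groups. Smc2, a condensin subunit that compacts mitotic chromosomes, stood at 37.5, 43.5 and 32.1 against 56.4, 58.1 and 48.3 (log2 difference 0.39, limma adjusted p = 0.0683), and passed without wild-type replicate 2, at 0.47 (limma adjusted p = 0.0413). The other probe sets of Smc2, all too low to be tested, ran from -0.060, where every knockout heart was lower, to 0.060. Its partner Smc4 had a brighter probe set at 0.41 that did not pass (limma adjusted p = 0.118). A dimmer one, at 94.3, 110 and 101 against 141, 142 and 138, rose by 0.41 (limma adjusted p = 0.0164). A dimmer probe set of Mycn also rose, by 0.46 (limma adjusted p = 0.0421), while its brightest stood at -0.22 (0.271); Smc4 and Mycn are named because of these calls. Of 15 tested further brakes on the cycle 0 passed (2 higher and 0 lower unadjusted, median -0.041). Gadd45g, a growth arrest gene, stood at 209, 176 and 177 against 239, 202 and 225 (log2 difference 0.23, limma adjusted p = 0.187), and Zmat3, a target of p53, at 108, 103 and 101 against 127, 117 and 114 (log2 difference 0.18, limma adjusted p = 0.189). The groups overlapped for Gadd45g and not for Zmat3.

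**Figure D4:**
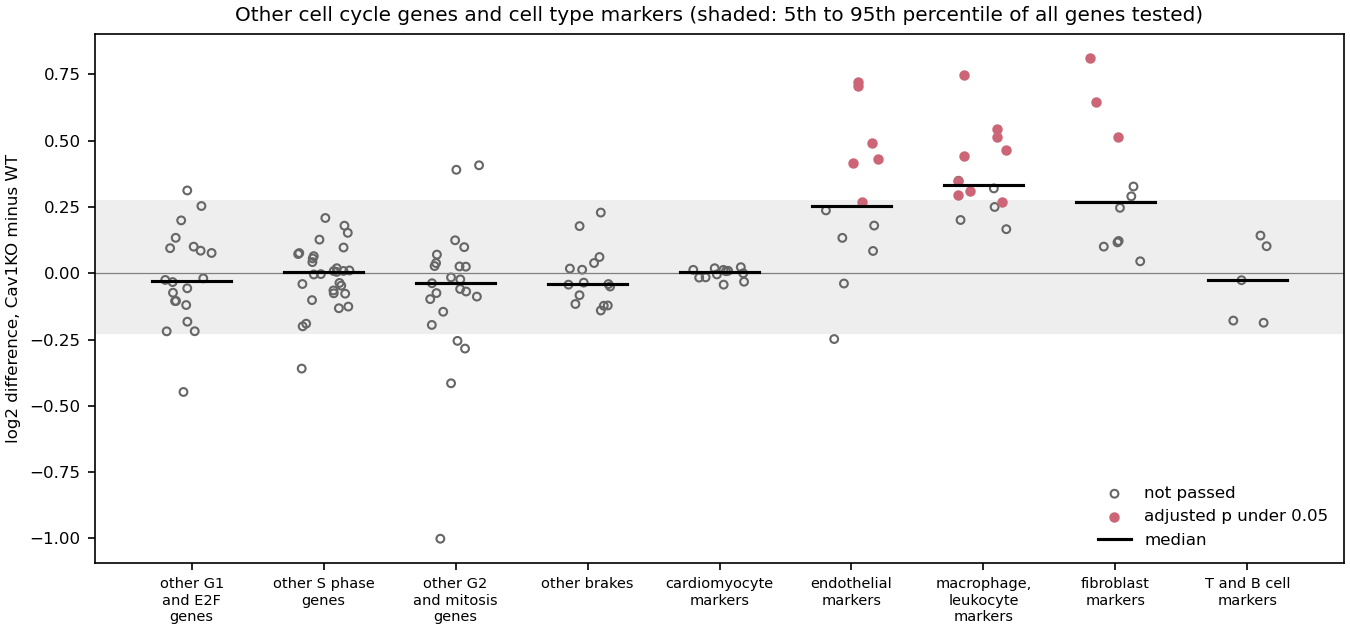
Each point is a tested gene at its brightest probe set, plotted as its log2 difference, knockout minus wild type, with the list's median as a black line and the 5th to 95th percentile of all genes tested shaded. No gene of the 4 cell cycle lists passed (open points), while 6 endothelial, 9 macrophage and leukocyte and 3 fibroblast markers did (red points), all higher in knockout.

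Over tested markers, the median log2 difference was above 0 for endothelial cells (0.25), macrophages and leukocytes (0.33) and fibroblasts (0.27), as for the MCM genes. It was 0.039 for smooth muscle, and below 0 for T and B cells (-0.026), red cell precursors (-0.22) and adipocytes (-1.73). With low markers counted, the median of T and B cell markers was 0.024. Of 12 endothelial markers 6 rose and 0 fell (limma), among them Pecam1, a junction protein, by 0.71, Tek by 0.49 and Tie1 by 0.42, both angiopoietin pathway receptors, and the factor gene Erg by 0.43. Robo4, a guidance receptor of vessels, was lower in every knockout heart, at 243, 233 and 266 against 222, 206 and 189 (log2 difference -0.25, limma adjusted p = 0.120), and the VEGF receptor genes Kdr and Flt1 had overlapping groups (-0.039 and 0.084); these 3 are named after their values were seen. The summed intensity of the 12 ran from 5454 to 5601 in wild-type and from 6453 to 7433 in knockout hearts, with knockout replicate 3 the lowest of the knockout hearts. Of 14 macrophage and leukocyte markers 9 rose and 0 fell, among them the pan-leukocyte gene Ptprc by 0.75, Laptm5 by 0.54, the cathepsin gene Ctss by 0.46 and Cd14 by 0.44, with sums of 6556 to 7572 against 8666 to 8846. Of 10 fibroblast markers 3 rose and 0 fell, Postn by 0.81, Col3a1 by 0.65 and Col1a1 by 0.51, with sums of 13926 to 15806 against 16991 to 19996. None of the 12 cardiomyocyte markers passed (0 also at an unadjusted p under 0.05), and their median log2 difference was 0.0039. After quantile normalisation, markers this bright had little room to differ between arrays. No marker in these 4 lists was at 0. In RNA of whole tissue more cells of a type and more RNA per cell cannot be told apart, and the part of these markers in the differences of the cell cycle genes was not tested.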

How the data were processed

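The deposited table holds 1 linear intensity for each of 45101 probe sets and 6 arrays. Per the labels' protocols, RNA was extracted with Trizol and 2 ug was labelled by the One-Cycle method. The submitters' processing notes name GCOS 1.4 without saying what it was used for. Summarisation, background correction and scaling by the authors are not given in the sources used here. No 2 arrays were duplicates (Spearman 0.989 to 0.997).

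The 64 control probe sets were left out. Because 2% trimmed means differed by 8.42%, more than the 5% allowed, intensities were quantile normalised (limma 3.58.1, R 4.3.3) and taken as log2(intensity + 16), which understates changes of low genes. The difference, knockout minus wild type, came from lmFit and a moderated test (eBayes, trend, no covariates) over the upper 50% of probe sets by mean, with Benjamini-Hochberg adjustment over all 22519. The number of arrays, 3 per group, limits precision. Of the probe sets, 34945 had 1 symbol, 932 several and 9160 none in the 2016 platform annotation; none was named from several symbols.

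The 32 genes and all lists were chosen with earlier results of these data known. Named are all 32, Cav1, the further cell cycle genes past the threshold or with the 2 smallest p in each list, and up to 4 markers past it per list. Alternatives were scaling, pseudocount, filter, variance prior, array weights, choice of probe set and leaving out each array.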

Additional observations from a re-analysis of the deposited data

How the results depend on the processing

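No paired analysis was run because the labels give no pairing of wild-type with knockout samples. Only the wild-type labels carry a replicate number. Every label also carries a longer number of unstated meaning, shared by no 2 samples; that of wild-type replicate 3 is nearer to the knockout numbers than to those of the other wild-type samples, and whether it marks a grouping was not tested. Instead of 0 of 21 tested genes, 1 passed as deposited, centred on the median and, among 14 tested, with the upper 25% of probe sets (each Mcm6), among 31 with no filter on low values (Top2a), and when any probe set counted (Ccnd1). With 1 heart left out 0 to 1 passed, the 1 being Cdkn1a without knockout replicate 3. Of the further cell cycle genes 2 passed with the upper 25% of probe sets (Gmnn and Cenpf), with array weights (Gmnn and Smc2) and when any probe set counted (Smc4 and Mycn), and 0 to 2 with 1 heart left out. The brightest Ccnd1 probe set passed under none of 14 alternatives, its log2 difference running from 0.12 to 0.28 and its limma adjusted p from 0.0597 to 0.431, and Cav1 passed under all 14. All probe sets called numbered 714 (531 higher, 183 lower), 406 (335 and 71) without a trend and with robust fitting, and 1171 (394 lower) with array weights; 58 were lower as deposited, 41 centred on the median and 103 with no filter. With 1 heart left out the counts ran from 191 to 742 in all, 157 to 550 higher and 34 to 192 lower.

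Signs turned for genes near 0: Cdk4 to 0.067 as deposited, 0.086 centred on the median and 0.0034 with array weights, Plk1 to 0.0092, 0.028 and 0.035, and, as deposited, Tyms to -0.016, Aurkb to -0.015 and Bub1 to -0.013. With 1 heart left out Ccnd2 ran from -0.0073 to 0.053, Ccnd3 from -0.032 to 0.045, Cdk4 from -0.063 to 0.046, E2f1 from -0.070 to 0.16, Rb1 from -0.011 to 0.040, Mcm2 from -0.063 to 0.22, Plk1 from -0.089 to 0.056 and Bub1 from -0.0073 to 0.019. The causes were not tested. Signal limits the 10 low genes, at intensities of 8.70 to 46.7.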

Other observations

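Further marker lists held no gene past the threshold. Of 5 tested T and B cell markers 0 passed in limma (0 unadjusted), with a summed intensity over 8 markers of 361 to 419 in wild-type and 343 to 411 in knockout hearts. Of 5 tested markers of red cell precursors 0 passed (1 lower unadjusted), with sums over 6 markers of 1728 to 2163 against 1531 to 1993. Of 7 smooth muscle markers 0 passed (1 lower unadjusted), with sums of 12303 to 12647 against 12784 to 13014. Of 4 tested adipocyte markers 0 passed (3 lower unadjusted), and the sum over 6 markers varied within groups, with 549, 1077 and 2188 in wild type against 237, 234 and 607 in knockout.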
